A study of Homo sapiens with 12 samples.

Results

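The genes described here are 38 genes of double-strand break repair, of the Fanconi and mismatch pathways and of the damage checkpoint. They were chosen by symbol, and all 38 were found among the 56609 symbols of the deposited table of estimated counts. RNA was sequenced from A375, an established human line of malignant melanoma. There were 4 groups of 3 replicates, each treated for 48 h: wild-type cells with DMSO, wild-type cells with 500 nM JQ1, MAPKAPK2-knockout cells with DMSO and MAPKAPK2-knockout cells with 500 nM JQ1. JQ1 displaces the BET proteins, readers of acetylated histones, from chromatin. MAPKAPK2 encodes MK2, a stress kinase downstream of p38, and it was disrupted with CRISPR/Cas9. The series asks how its loss raises resistance to BET inhibitors. The labels do not say whether the knockout line is 1 clone or a pool, nor whether replicates were separate cultures, so the p-values measure the spread between these libraries, which may be technical.

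A double-strand break can be copied from the sister chromatid by homologous recombination, which works after DNA replication, or rejoined directly by end joining. In recombination the MRE11 nuclease complex and RBBP8 trim the ends, BRCA1 with BARD1 and PALB2 with BRCA2 prepare the trimmed strand for exchange, and RAD51B to RAD51D, XRCC2, XRCC3, the RAD54 proteins and RAD51AP1 help it invade the template. In end joining the Ku heterodimer of XRCC6 and XRCC5 recruits the kinase PRKDC, and XRCC4 with LIG4 seals the break. The Fanconi core complex marks FANCD2 and FANCI at crosslinks between strands, MSH6 recognises mispaired bases, and ATM and ATR signal the damage through CHEK2 and CHEK1. Many recombination genes are transcribed mainly in cells that are about to replicate or are replicating their DNA.

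Libraries held 25316899 to 34594295 counts. All 38 genes passed the filter on low counts, as did 21698 genes in total. MAPKAPK2 itself was at 88.8, 87.9 and 92.1 CPM (counts scaled to 1000000 counts of the library's effective size) in wild-type DMSO libraries and at 11.1, 13.2 and 13.0 in knockout DMSO libraries. In JQ1 it was at 119, 119.7 and 112 in wild type and at 14.9, 12.6 and 15.7 in knockout. Markers of melanoma cells summed to 1341 to 2331 CPM per library, with SOX10 at 389 to 687 CPM, whereas PMEL and MLANA, markers of pigmented melanocytes, stayed at or below 1.45 CPM and TYR and DCT did not pass the filter. The melanoma sum ran from 1616 to 1695 CPM in wild-type DMSO, 1754 to 2076 in wild-type JQ1, 1341 to 1613 in knockout DMSO and 1649 to 2331 in knockout JQ1. Summed markers of keratinocytes, fibroblasts, leukocytes and endothelium reached at most 7.17, 13.3, 3.85 and 13.0 CPM, and KRT1 was at 0 in every library. Endothelial markers, mainly KDR, summed to 9.91 to 13.0 CPM in wild-type and 4.04 to 8.0 CPM in knockout libraries. Knockout JQ1 replicate 3 stood apart from its group: the chi-square per degree of freedom over genes was 28.3 and 29.9 against the other two replicates, and 3.53 to 8.11 for every other pair of replicates of a group. In it, 27 of the 38 repair genes had the lowest value of the 3 knockout JQ1 libraries and 7 the highest, so values without it are given beside the genes whose call it changed or whose value it moved most.

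Per kilobase of transcript, the 3 genes of the end-joining complex PRKDC, XRCC5 and XRCC6 stood at the head of the 38 in wild-type DMSO cells, at 138, 131 and 102 CPM per kb. FANCI followed at 27.0, TOPBP1 at 26.6 and MSH6 at 23.3 CPM per kb. The length was that of each gene's longest annotated transcript (4.74 kb for FANCI and 7.48 kb for MSH6), so the order depends on it. On the CPM scale, PRKDC alone held 43.8% to 44.1% of the 38 genes' counts in wild-type DMSO libraries. This share was 39.3% to 40.4% in wild-type JQ1, 32.9% to 33.9% in knockout DMSO and 26.2% to 28.0% in knockout JQ1 libraries. The summed level of the other 37 genes overlapped between wild-type DMSO (2356 to 2406 CPM) and knockout DMSO (2323 to 2493 CPM).

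JQ1 changed a part of the repair genes by modest amounts, and 8 genes fell in both genotypes. With the scaling reported here most of the changes were falls, but this split depended on the scaling. With offsets for GC content and transcript length, 8 fell and 6 rose in wild type, and 8 fell and 10 rose in knockout. With these offsets 8571 of all genes passed in wild type and 8878 in knockout. In wild-type cells 9 of 38 genes passed an adjusted p of 0.05 (edgeR's quasi-likelihood test, Benjamini-Hochberg over all genes tested), against 33.1% of all tested genes. Of the 38 genes, 8 fell (21.1%), where 16.2% of all genes fell, and 1 rose (2.63%), where 16.9% of all genes rose. In knockout cells 12 of 38 passed, against 34.4% of all genes. Of the 38, 10 fell (26.3%, against 17.8% of all genes) and 2 rose (5.26%, against 16.7% of all genes). The shares of repair genes that changed were 23.7% and 31.6%, below that of all genes in wild type and near it in knockout. This order was not kept in every alternative. With library totals only, 15 of 38 passed in wild type, where 7666 of 21698 genes did. In knockout 18 of 38 passed with offsets for GC content and transcript length, where 8878 of 21698 genes did. The genes that fell in both genotypes were RAD51AP1, RAD51D, MRE11, FANCD2, PRKDC, PALB2, XRCC5 and ATM, which are 88.9% of the wild-type calls and 66.7% of the knockout calls. The wild-type and knockout comparisons share no library. No gene of the 38 changed by 1 or more on the log2 scale, and 25 passed in neither genotype. The median log2 fold change of the 38 genes was -0.11 in wild type and -0.05 in knockout, where that of all tested genes was -0.03 and 0.00. In CPM, the 3 JQ1 and the 3 DMSO libraries did not overlap for 20 genes in wild type (6 higher and 14 lower in JQ1), against 50.4% of all genes. In knockout they did not overlap for 14 genes (3 higher and 11 lower), against 42.3% of all genes.

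**Figure D1:**
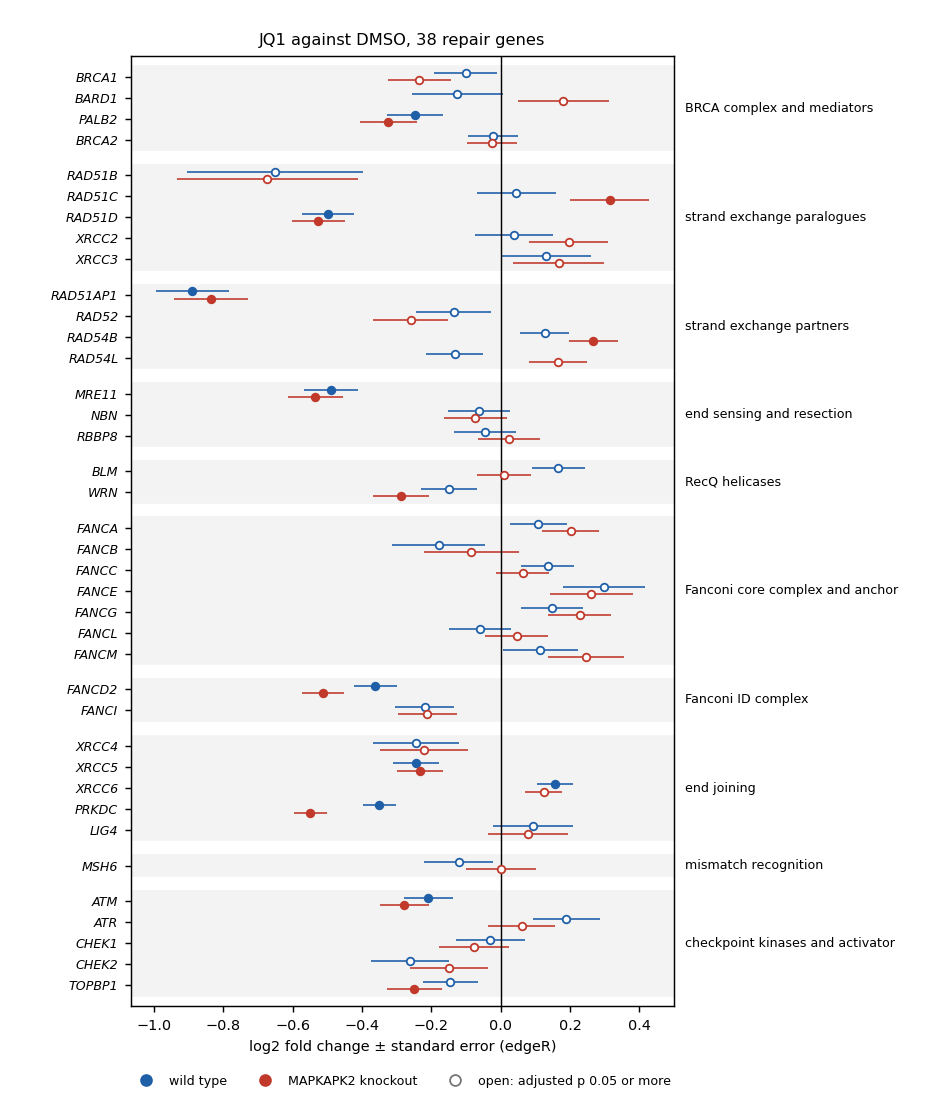
Log2 fold change of JQ1 against DMSO (x axis, with the standard error as a line) for the 38 repair genes in wild-type (blue) and MAPKAPK2-knockout cells (red), grouped by role. Filled points passed an adjusted p of 0.05; RAD51AP1 lies farthest to the left among the filled points, at -0.89 and -0.84.

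Promoters are shown for 4 of the genes that fell in both genotypes, so that letters shared by genes that moved together can be compared. They were taken from RefSeq (GRCh38.p14), from 250 bases before to 50 bases after the annotated start, on the gene's strand, and 32 of the 38 genes were in that table with 50 promoters. Capitals mark matches, on either strand, to the letters searched. RAD51AP1 (chr12:4538640-4538939, plus strand) held a CCAAT box on the reverse strand. MRE11 (chr11:94493795-94494094, minus strand) held an ETS-type match on the reverse strand, followed by a CCAAT box on each strand. FANCD2 (chr3:10026187-10026486, plus strand) held an ETS-type match and, at the start site, an E2F-type match, both on the reverse strand. PALB2 (chr16:23641261-23641560, minus strand) held an ETS-type match and a CCAAT box, both on the reverse strand.
RAD51AP1: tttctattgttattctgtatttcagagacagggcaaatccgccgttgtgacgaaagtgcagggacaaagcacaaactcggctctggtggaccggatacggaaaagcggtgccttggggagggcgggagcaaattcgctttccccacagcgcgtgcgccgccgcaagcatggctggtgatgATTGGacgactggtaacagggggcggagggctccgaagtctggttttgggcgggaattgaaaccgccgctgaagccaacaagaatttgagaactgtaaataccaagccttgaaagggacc
MRE11: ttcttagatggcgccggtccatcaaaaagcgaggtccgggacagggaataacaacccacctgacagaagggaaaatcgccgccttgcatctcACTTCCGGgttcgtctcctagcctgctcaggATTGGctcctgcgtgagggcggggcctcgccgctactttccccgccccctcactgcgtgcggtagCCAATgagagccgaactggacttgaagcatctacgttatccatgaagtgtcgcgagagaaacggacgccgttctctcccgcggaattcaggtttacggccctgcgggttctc
FANCD2: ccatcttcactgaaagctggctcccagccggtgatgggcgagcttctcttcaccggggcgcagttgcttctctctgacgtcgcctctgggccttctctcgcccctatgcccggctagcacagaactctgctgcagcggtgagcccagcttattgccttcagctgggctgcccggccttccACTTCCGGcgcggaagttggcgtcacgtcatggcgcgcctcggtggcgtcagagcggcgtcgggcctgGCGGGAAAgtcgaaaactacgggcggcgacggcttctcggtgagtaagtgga
PALB2: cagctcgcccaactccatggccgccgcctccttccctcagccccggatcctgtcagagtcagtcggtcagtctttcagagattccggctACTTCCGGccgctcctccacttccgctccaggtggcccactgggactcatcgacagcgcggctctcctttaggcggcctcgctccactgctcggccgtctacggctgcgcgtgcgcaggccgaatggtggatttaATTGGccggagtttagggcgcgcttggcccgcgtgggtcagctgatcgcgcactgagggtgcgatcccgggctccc

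The ETS-type letters searched were CCGGAAGT, and 5 of the 32 genes with a promoter (15.6%) held them, where 4.95% of all genes in the table did. Of the 6 genes that fell in both genotypes and are in the table, 3 held them: MRE11, FANCD2 and PALB2, as printed above. The E2F-type letters were TTTGGCGC, TTTGCCGC, TTTCGCGC or TTTCCCGC, and 7 of the 32 genes (21.9%) held 1 or more, where 3.99% of all genes did. Of the 6 genes that fell in both, only FANCD2 held an E2F-type match, and 4 of the 23 genes that passed in neither genotype and are in the table held one. The CCAAT box was held by 16 of the 32 genes (50%) and 39.7% of all genes, the E-box CACGTG by 2 (6.25%) and 8.77% of all genes, and the cell cycle homology element, searched as TTTGAA or as TTCGAA, by 2 (6.25%) and 19.5% of all genes. Per promoter over the whole table, the shares were 4.14% for the ETS-type letters, 3.31% for the E2F-type, 34.6% for the CCAAT box, 7.26% for the E-box and 16.4% for the homology element. The letters of no motif contain those of another, and both RAD51D promoters held none of them. A match is a run of letters and not a measured binding site.

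The strand exchange partners held the gene with the strongest fall. RAD51AP1, whose protein stimulates the joining of the broken strand to the template, was at 27.7, 26.7 and 26.3 CPM in wild-type DMSO and at 13.4, 14.8 and 15.3 in wild-type JQ1 libraries. In knockout libraries it was at 25.4, 23.7 and 22.8 CPM in DMSO and at 14.7, 14.9 and 10.8 in JQ1. Every JQ1 library lay below every DMSO library of both genotypes. The log2 fold change was -0.89 (SE 0.11, adjusted p = 1.49e-05, edgeR) in wild type and -0.84 (SE 0.11, adjusted p = 2.65e-05) in knockout, that is to 0.540 and 0.560 of the DMSO level. The third knockout JQ1 library was the lowest of all 12, and without it the knockout value was -0.69.

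RAD54B, a DNA translocase of strand exchange, moved the other way in knockout cells. It was at 27.4, 26.9 and 26.0 CPM in knockout DMSO and at 34.2, 32.5 and 30.0 in knockout JQ1 libraries, without overlap. In wild-type cells it was at 28.2, 26.7 and 29.2 CPM in DMSO and 31.8, 28.9 and 31.1 in JQ1, and these ranges overlapped. The log2 fold change was 0.27 (SE 0.07, adjusted p = 0.00875, edgeR) in knockout and 0.13 (adjusted p = 0.191) in wild type. The knockout call was lost in 4 of 21 alternatives, among them the authors' factors as offsets (0.18, adjusted p = 0.0849, edgeR). Its paralogue RAD54L was at -0.13 and 0.17 in wild type and knockout, and the annealing protein gene RAD52 at -0.14 and -0.26, none of which passed.

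Among the 5 paralogues RAD51B, RAD51C, RAD51D, XRCC2 and XRCC3, whose proteins assist strand exchange, RAD51D was the gene that fell past the threshold. RAD51D was at 18.5, 19.3 and 20.6 CPM in wild-type DMSO and at 14.3, 12.9 and 14.2 in wild-type JQ1 libraries. Knockout DMSO libraries lay close together at 19.6, 19.4 and 19.4 CPM, and knockout JQ1 libraries were at 13.8, 13.0 and 13.8. DMSO and JQ1 libraries did not overlap in either genotype, and the log2 difference between genotypes was 0.00 in DMSO and -0.03 in JQ1. JQ1 changed it by -0.50 on the log2 scale (SE 0.08, adjusted p = 0.000133, edgeR) in wild type and -0.53 (SE 0.08, adjusted p = 7.85e-05) in knockout. With the authors' gene-specific factors as offsets, the wild-type value was -0.34 and no longer passed (adjusted p = 0.0843). RAD51D shares exons with a read-through transcript, so its counts are uncertain.

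RAD51C, a partner of both complexes these paralogues form, rose in knockout cells with a log2 fold change of 0.31 (adjusted p = 0.0453, edgeR), close to the threshold, and was at 0.04 in wild type. This call was lost in 14 of 21 alternatives. RAD51B had the lowest level of the 38 in CPM, a mean of 3.04 in wild-type DMSO libraries, and its log2 fold changes of -0.65 and -0.67 had standard errors of 0.25 and 0.26 and did not pass. With the third knockout JQ1 library left out, RAD51B passed as lower in wild type, at -0.65 (adjusted p = 0.0490, edgeR). XRCC2 was at 0.04 and 0.20 and XRCC3 at 0.13 and 0.17, neither of which passed.

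In the BRCA complex, PALB2, which bridges BRCA1 and BRCA2, was the gene that fell. It was at 33.0, 32.4 and 35.8 CPM in wild-type DMSO, 27.9, 28.9 and 28.6 in wild-type JQ1, 36.2, 31.6 and 32.5 in knockout DMSO and 27.8, 28.7 and 23.6 in knockout JQ1 libraries. The JQ1 libraries lay below the DMSO libraries in both genotypes. The log2 fold change was -0.25 (SE 0.08, adjusted p = 0.0302, edgeR) in wild type, a call lost in 10 of 21 alternatives, and -0.32 (SE 0.08, adjusted p = 0.00661) in knockout. BRCA1, the scaffold of the complex, was at -0.10 and -0.24 (adjusted p = 0.432 and 0.0587). In knockout BRCA1 passed as lower in 6 of 21 alternatives, among them the authors' factors as offsets (-0.27, adjusted p = 0.0189, edgeR). Its partner BARD1 was at -0.13 in wild type and 0.18 in knockout, where the value without the third JQ1 library was 0.34 and passed (adjusted p = 0.0226). BRCA2, which acts next to PALB2 in preparing the strand, was at -0.02 and -0.02 and did not pass.

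Of the genes that sense and trim ends, MRE11 fell and its partners did not pass. MRE11, the nuclease, was at 71.3, 66.8 and 66.7 CPM in wild-type DMSO and at 47.4, 47.6 and 50.8 in wild-type JQ1 libraries. In knockout libraries it was at 76.7, 70.4 and 68.9 CPM in DMSO and at 53.2, 52.7 and 43.3 in JQ1. The treatments did not overlap in either genotype. JQ1 changed MRE11 by -0.49 on the log2 scale (SE 0.08, adjusted p = 0.000216, edgeR) in wild type and -0.54 (SE 0.08, adjusted p = 8.91e-05) in knockout, where the value without the third JQ1 library was -0.44. NBN, the subunit that recruits ATM, was at -0.06 and -0.07, and RBBP8, which activates the nuclease, at -0.05 and 0.02. Of the RecQ helicases, WRN fell in knockout cells. It was at 37.96, 34.5 and 34.9 CPM in knockout DMSO and at 30.8, 30.7 and 26.6 in knockout JQ1 libraries, a log2 change of -0.29 (SE 0.08, adjusted p = 0.0120, edgeR). In wild-type libraries WRN was at 32.1, 31.1 and 29.7 CPM in DMSO and 25.4, 29.5 and 28.9 in JQ1, a change of -0.15 that did not pass. The knockout call of WRN was lost without knockout DMSO replicate 1. BLM, which dissolves joint molecules, was at 0.17 and 0.01, and in wild type it passed as higher in 4 of 21 alternatives.

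Of the 9 Fanconi genes, 1 passed in each genotype. FANCD2, the protein that is ubiquitinated at crosslinks, was at 77.1, 70.2 and 68.9 CPM in wild-type DMSO and at 56.9, 55.0 and 56.4 in wild-type JQ1 libraries. In knockout libraries it was at 84.1, 80.2 and 81.9 CPM in DMSO and at 59.5, 59.1 and 53.9 in JQ1. The treatments did not overlap in either genotype. JQ1 changed FANCD2 by -0.36 on the log2 scale (SE 0.06, adjusted p = 0.000359, edgeR) in wild type and -0.51 (SE 0.06, adjusted p = 1.35e-05) in knockout. FANCD2 has pseudogene copies among which reads can be split. Its partner FANCI was at -0.22 and -0.21 and did not pass (adjusted p = 0.0625 and 0.0704). With the third knockout JQ1 library left out, FANCI passed as lower in wild type, at -0.22 (adjusted p = 0.00761, edgeR). None of the 7 genes of the core complex and its anchor FANCM passed in either genotype, and their median was 0.11 in wild type and 0.20 in knockout. Without the third knockout JQ1 library FANCM was at 0.37 in knockout (adjusted p = 0.00486, edgeR) and FANCE at 0.30 in wild type (adjusted p = 0.0358), and both passed as higher. With offsets for GC content and transcript length, FANCM, FANCA and FANCG passed as higher in knockout, and FANCM in wild type. FANCG, a core subunit, was at 29.7, 27.8 and 31.5 CPM in wild-type DMSO, 34.5, 32.7 and 31.4 in wild-type JQ1, 29.3, 30.1 and 33.3 in knockout DMSO and 35.7, 31.9 and 40.8 in knockout JQ1 libraries, with overlap in both genotypes. Its log2 fold change was 0.15 in wild type and 0.23 in knockout (adjusted p = 0.228 and 0.0642, edgeR). The core gene farthest from 0 was FANCE, at 0.30 and 0.26, and FANCA, FANCB, FANCC, FANCL and FANCM lay between -0.18 and 0.25.

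In end joining, both PRKDC and XRCC5 fell under JQ1, and XRCC6 did not follow its partner. PRKDC, the DNA-dependent protein kinase, was at 1898, 1851 and 1854 CPM in wild-type DMSO and at 1449, 1486 and 1459.8 in wild-type JQ1 libraries. In knockout libraries it was at 1236, 1138 and 1209 CPM in DMSO and at 833, 843 and 772 in JQ1. The 4 groups formed 4 separate steps with no overlap between any of them. The log2 fold change of JQ1 was -0.35 (SE 0.05, adjusted p = 4.80e-05, edgeR) in wild type and -0.55 (SE 0.05, adjusted p = 5.88e-07) in knockout.

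XRCC5, the larger Ku subunit, was at 500.1, 481 and 492 CPM in wild-type DMSO and 416, 413 and 415 in wild-type JQ1 libraries. In knockout libraries it was at 536, 479 and 489.6 CPM in DMSO and 463, 439.6 and 378 in JQ1. The treatments did not overlap in either genotype, and the third knockout JQ1 library was the lowest of the 12. JQ1 changed XRCC5 by -0.24 on the log2 scale (SE 0.07, adjusted p = 0.0112, edgeR) in wild type and -0.23 (SE 0.07, adjusted p = 0.0141) in knockout, where the value without that library was -0.15 (adjusted p = 0.0311). The wild-type call was lost without wild-type DMSO replicate 1, and the knockout call without knockout DMSO replicate 1 and with only the groups compared. XRCC6, the smaller Ku subunit, was at 278, 278 and 276 CPM in wild-type DMSO and 317, 304 and 306 in wild-type JQ1, and at 321, 296 and 304 in knockout DMSO and 348, 343 and 313 in knockout JQ1 libraries. It rose in wild type, by 0.16 on the log2 scale (SE 0.05, adjusted p = 0.0320, edgeR), a call lost in 9 of 21 alternatives. In knockout its change was 0.12 and did not pass (adjusted p = 0.0850), and without the third knockout JQ1 library it was 0.17 and passed (adjusted p = 0.00768). XRCC4 was at -0.25 and -0.22 and its ligase partner LIG4 at 0.09 and 0.08, neither of which passed.

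MSH6, the mismatch recognition subunit, was at 168, 177 and 177 CPM in wild-type DMSO, 151, 156 and 173 in wild-type JQ1, 149, 171 and 162 in knockout DMSO and 164, 187 and 131 in knockout JQ1 libraries. The knockout JQ1 libraries alone spanned the whole range, and neither log2 fold change passed (-0.12 in wild type and 0.00 in knockout). Among the checkpoint genes, ATM, the kinase that answers double-strand breaks, fell in both genotypes. It was at 129, 138 and 137 CPM in wild-type DMSO and 116, 111 and 123 in wild-type JQ1, and at 136, 125 and 118 in knockout DMSO and 111, 107 and 95.1 in knockout JQ1 libraries, without overlap between treatments. JQ1 changed ATM by -0.21 on the log2 scale (SE 0.07, adjusted p = 0.0340, edgeR) in wild type, a call lost in 11 of 21 alternatives, and -0.28 (SE 0.07, adjusted p = 0.00686) in knockout. With offsets for GC content and transcript length ATM was at -0.02 in wild type and -0.08 in knockout and passed in neither (adjusted p = 0.784 and 0.196, edgeR). TOPBP1, the activator of ATR, fell in knockout cells (log2 -0.25, adjusted p = 0.0245, edgeR) and was at -0.15 in wild type. The call was lost in 4 of 21 alternatives, among them GC content and length offsets (-0.14) and leaving out knockout DMSO replicate 1 or 3. Without the third knockout JQ1 library its knockout value was -0.14 (adjusted p = 0.0467). ATR was at 0.19 and 0.06, CHEK1 at -0.03 and -0.08, and CHEK2, which has pseudogene copies, at -0.26 and -0.15, and none of these passed. Without the third knockout JQ1 library ATR passed as higher, at 0.19 in wild type and 0.20 in knockout (adjusted p = 0.00540 and 0.00927, edgeR). In the same fit TOPBP1 (-0.14, adjusted p = 0.0195) and CHEK2 (-0.26, adjusted p = 0.0332, edgeR) passed as lower in wild type.

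**Figure D2:**
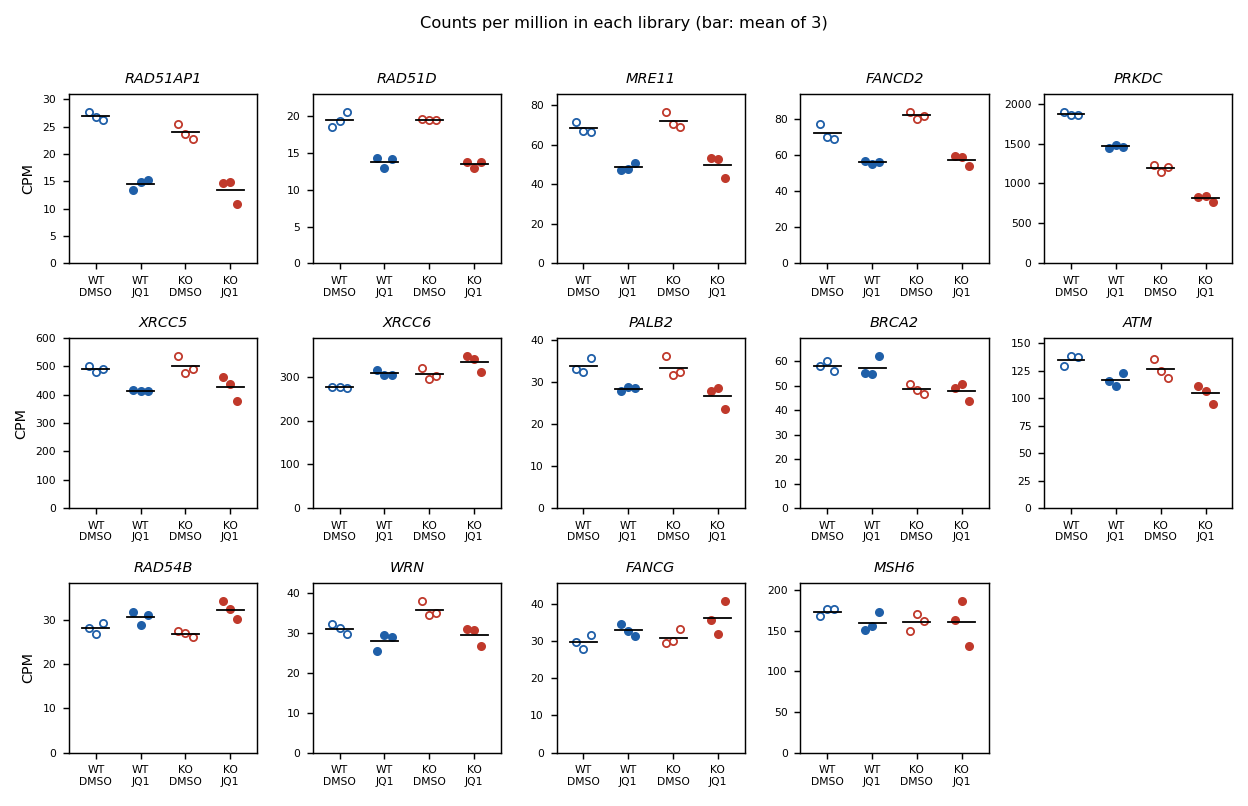
CPM (y axis, from 0) in each of the 12 libraries for 14 repair genes, in wild-type (WT, blue) and knockout (KO, red) cells with DMSO (open) or JQ1 (filled); the bar is the mean of 3. RAD51AP1, RAD51D, MRE11 and FANCD2 are lower in JQ1 in both genotypes, and PRKDC forms 4 steps. BRCA2 is lower in knockout in each treatment, a call kept in 8 (DMSO) and 5 (JQ1) of 21 alternatives.

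The split between rising and falling genes depended on the scaling. Scaling by library totals alone moved the median of all genes by -0.13 in wild type and -0.12 in knockout, and then 15 repair genes fell and 0 rose in wild type, with 14 and 0 in knockout. With offsets for GC content and transcript length, 8 fell and 6 rose in wild type, and 8 fell and 10 rose in knockout. With the authors' factors the split was 6 lower and 2 higher in wild type and 11 lower and 0 higher in knockout. Without knockout JQ1 replicate 3 there were 12 lower and 3 higher in wild type, a comparison it enters through the shared estimate of spread, and 10 lower and 6 higher in knockout. Without wild-type DMSO replicate 1 there were 5 lower and 0 higher in wild type. The number of all genes that passed in wild type also moved, from 7187 as reported to 5754 without that library and 8571 with the GC content and length offsets. RAD51AP1, MRE11, FANCD2 and PRKDC fell past the threshold in both genotypes under all 21 alternatives, and RAD51D and PALB2 did so in knockout, but the size of the falls moved. In wild type the value ran from -1.02 to -0.77 for RAD51AP1, from -0.62 to -0.36 for MRE11, from -0.49 to -0.29 for FANCD2 and from -0.48 to -0.19 for PRKDC, whose smallest fall was with offsets for GC content and transcript length.

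**Figure D3:**
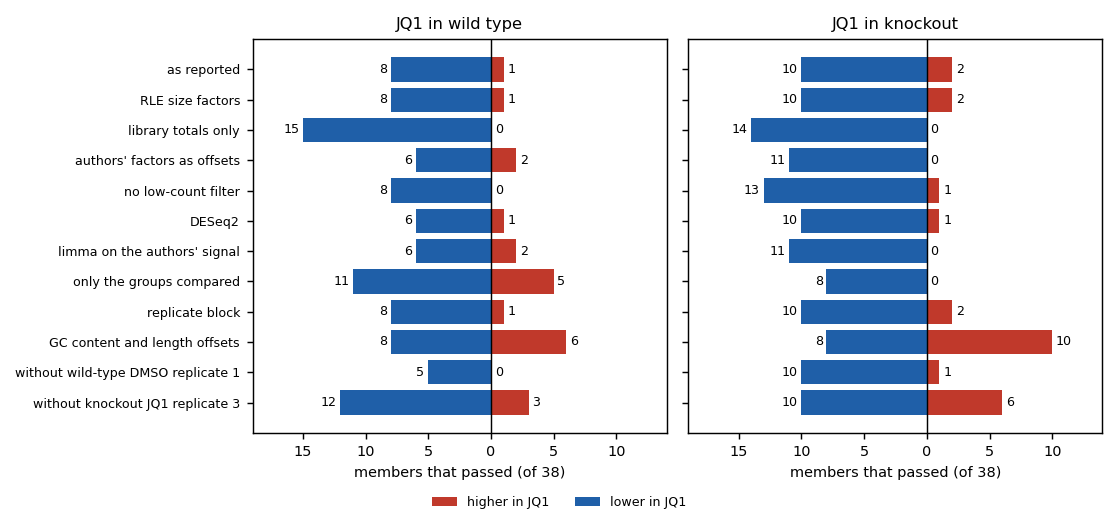
Number of the 38 repair genes that passed an adjusted p of 0.05 (x axis), higher (red) or lower (blue) in JQ1, in wild-type and knockout cells, for the reported analysis and for 11 of the 21 alternatives (y axis). The lower counts run from 5 to 15 in wild type and 8 to 14 in knockout, and the higher counts from 0 to 6 and 0 to 10.

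Few of the repair genes differed between knockout and wild-type cells, and PRKDC differed most. In DMSO 2 of 38 genes passed (5.26%), against 7.92% of all genes. Both fell (4.44% of all genes) and 0 rose (3.47% of all genes). In JQ1 again 2 of 38 passed (5.26%), against 8.57% of all genes. Both fell (5.56% of all genes) and 0 rose (3.01% of all genes). They were PRKDC and BRCA2 in each treatment, and the comparisons in DMSO and in JQ1 share no library. The median log2 fold change of the 38 genes was -0.01 in DMSO and 0.02 in JQ1, and that of all genes 0.00 in each. Knockout and wild-type libraries did not overlap for 9 genes in DMSO (4 higher and 5 lower in knockout), against 29.6% of all genes, and for 4 in JQ1 (1 higher and 3 lower), against 23.1%. Without knockout JQ1 replicate 3, XRCC6 and FANCD2 also passed as higher in DMSO, and in JQ1 XRCC6 and BARD1 passed as higher while BRCA2 was lost. With offsets for GC content and transcript length, 5 genes passed as higher and 1 as lower in DMSO, where 2926 of all genes passed.

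PRKDC was lower in knockout than in wild-type cells by a log2 fold change of -0.65 in DMSO (SE 0.05, adjusted p = 7.69e-07, edgeR) and -0.84 in JQ1 (SE 0.05, adjusted p = 3.68e-08), that is at 0.639 and 0.557 of the wild-type level. Both calls were kept in all 21 alternatives, with values between -0.69 and -0.54 in DMSO and between -0.88 and -0.74 in JQ1. BRCA2 was at 58.2, 60.2 and 56.2 CPM in wild-type DMSO and 50.7, 48.4 and 46.7 in knockout DMSO libraries. In JQ1 it was at 55.1, 54.7 and 62.0 CPM in wild type and 49.0, 50.8 and 43.6 in knockout. In each treatment every knockout library lay below every wild-type library. The log2 fold change was -0.26 in DMSO (SE 0.07, adjusted p = 0.0385, edgeR) and -0.26 in JQ1 (SE 0.07, adjusted p = 0.0364). These calls were kept in 8 and in 5 of 21 alternatives, and without the third knockout JQ1 library the value in JQ1 was -0.20 and did not pass (adjusted p = 0.0684).

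**Figure D4:**
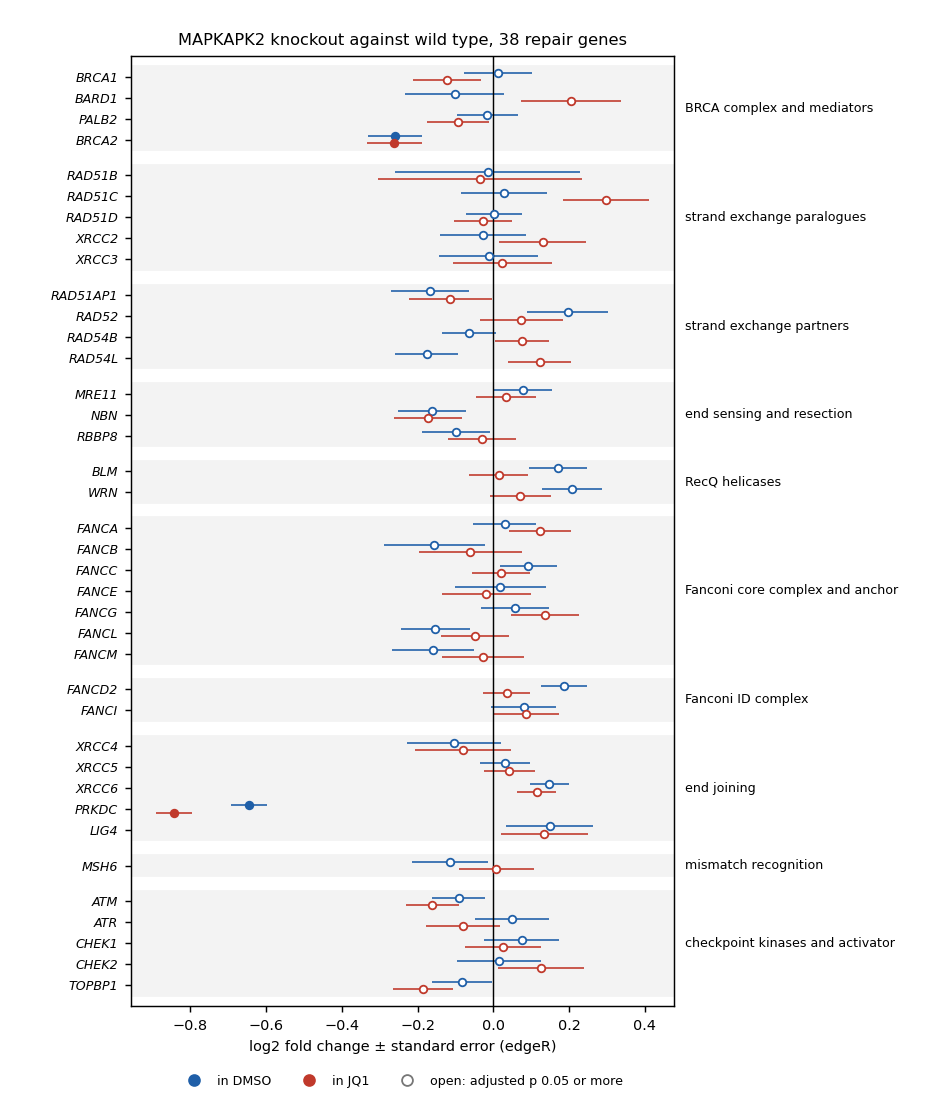
Log2 fold change of MAPKAPK2 knockout against wild type (x axis, with the standard error as a line) for the 38 repair genes in DMSO (blue) and in JQ1 (red), grouped by role. Filled points passed an adjusted p of 0.05: PRKDC at -0.65 and -0.84, and BRCA2 at -0.26 and -0.26.

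PRKDC lies on chromosome 8 next to MCM4, which encodes a subunit of the replicative helicase, and the genes around it were examined after the values of both had been seen. MCM4 was at 289, 282 and 278 CPM in wild-type DMSO and 189, 178 and 189 in knockout DMSO libraries, and at 283, 292 and 290.1 in wild-type JQ1 and 199, 196 and 199 in knockout JQ1 libraries. Every knockout library lay below every wild-type library, and in wild type the DMSO and JQ1 libraries overlapped. Its log2 fold change in knockout was -0.61 in DMSO (adjusted p = 9.09e-07, edgeR) and -0.54 in JQ1 (adjusted p = 2.59e-06), kept in all 21 alternatives. Under JQ1 it was at 0.03 in wild type and 0.10 in knockout and did not pass, where PRKDC fell. Among the 8 genes with a mean of 5 CPM or more on each side of PRKDC, none of the other 15 passed in a knockout comparison. Over the 375 such genes of chromosome 8 the median log2 fold change was 0.01 in both treatments. Whether the 2 neighbours fell together through the locus was not tested.

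**Figure D5:**
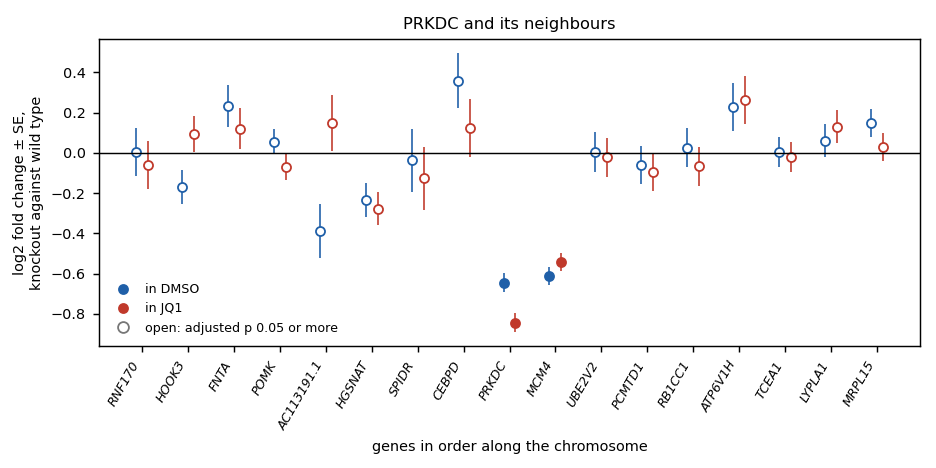
Log2 fold change of knockout against wild type (y axis, with the standard error) for PRKDC and 8 neighbours on each side in gene order (x axis), in DMSO (blue) and JQ1 (red); filled points passed an adjusted p of 0.05. PRKDC and MCM4 are the filled points, at -0.65 and -0.61 in DMSO.

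No difference in JQ1 response between the genotypes was detected for any repair gene. In the interaction of genotype and JQ1, 0 of 38 genes passed, where 29 of 21698 genes did (0.134%), 0.0323% higher and 0.101% lower. At an unadjusted p below 0.05 there were 2 repair genes and 1817 of all genes. DESeq2, which called 154 of all genes, and every other alternative also called 0 of the 38. The genes with the lowest unadjusted p were PRKDC, whose fall under JQ1 was deeper in knockout by -0.20 (SE 0.07, unadjusted p = 0.00985, adjusted p = 0.414), and RAD54L, at 0.30 (SE 0.12, unadjusted p = 0.0228, adjusted p = 0.509). Interaction values over the 38 genes ran from -0.20 (PRKDC) to 0.31 (BARD1, adjusted p = 0.687, edgeR), with a median standard error of 0.13. Even the values at both ends did not pass. The standard errors ran from 0.07 (PRKDC) to 0.36 (RAD51B), so the size of difference that could be missed varies between genes. A gene that did not pass is therefore not shown to respond alike in both genotypes.

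Other genes of the same pathways gave mixed directions under JQ1. Of 41 further recombination and Fanconi genes, 5 rose and 3 fell in wild type, and 9 rose and 7 fell in knockout, that is 19.5% and 39.0% where 33.1% and 34.4% of all tested genes changed. RMI2, a subunit of the BLM dissolvase, fell in both genotypes (log2 -0.63 and -0.54), and DNA2, a resection nuclease, fell in both genotypes (log2 -0.39 and -0.33). SWI5, a strand exchange cofactor, was at 0.59 and 0.43, and the helicase RECQL4 at 0.62 and 0.68, and both rose in each genotype. Of 15 further end-joining genes, 4 rose and 1 fell in wild type (33.3%), and 2 rose and 2 fell in knockout (26.7%). LIG3, the ligase of alternative end joining, fell in both (-0.35 and -0.43), and PAXX, a Ku-binding factor, rose in wild type (0.42). Of 6 further mismatch repair genes, 0 rose and 2 fell in each genotype (33.3%), with PMS2, which has many related copies, at -0.56 and -0.50. Of 23 damage signalling genes, 5 rose and 4 fell in wild type (39.1%), and 8 rose and 5 fell in knockout (56.5%). CDKN1A, the p21 inhibitor of cyclin-dependent kinases, rose in both genotypes (log2 1.36 and 1.04), and CDC25C, a phosphatase for entry into mitosis, fell in both genotypes (log2 -0.47 and -0.46). The replication fork gene TIMELESS rose in both (0.44 and 0.50).

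Of 18 genes of G2 and mitosis, 8 fell (44.4%) and 1 rose (5.56%) under JQ1 in each genotype, where 16.2% and 17.8% of all tested genes fell in wild type and knockout, with KIF20A at -0.32 and -0.42 and BUB1B at -0.39 and -0.43. Their summed level was 3696 to 3845 CPM in wild-type DMSO and 3251 to 3351 CPM in wild-type JQ1, and 3157 to 3405 CPM in knockout DMSO and 2560 to 2887 CPM in knockout JQ1 libraries. Of 26 S-phase genes, 5 rose and 5 fell in wild type (38.5%) and 7 rose and 4 fell in knockout (42.3%), near the 33.1% and 34.4% of all genes that changed, with PCNA, the polymerase clamp, at 0.45 and 0.52 and MCM5, a helicase subunit, at -0.35 and -0.31. Their sum overlapped between treatments in wild type (2056 to 2106 CPM in DMSO and 2069 to 2113 in JQ1) and was higher in JQ1 in knockout (1955 to 2028 and 2134 to 2185 CPM). Of 20 E2F and DREAM regulators, 2 rose and 7 fell in wild type (45.0% in all) and 2 rose and 5 fell in knockout (35%). E2F2, an activating E2F, fell in both genotypes (log2 -1.01 and -0.87), whereas E2F1 rose in both genotypes (log2 0.34 and 0.65). The part of the cell cycle in the falls of RAD51AP1, FANCD2 and the other repair genes was not tested. In bulk RNA, fewer cells in a phase and less RNA per cell cannot be told apart.

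These further lists of 6 to 41 genes were also compared between knockout and wild type. In DMSO, 2 of 15 end-joining genes rose and 1 fell, 2 of 23 damage signalling genes rose and 1 fell, and 1 of 20 E2F and DREAM regulators rose and 2 fell. Of 41 recombination and Fanconi genes 0 rose and 1 fell, of 26 S-phase genes 0 rose and 2 fell, and of 18 G2 and mitosis genes 0 rose and 1 fell. Of 6 mismatch repair genes 0 rose and 0 fell. Of all tested genes 7.92% passed, 3.47% as higher and 4.44% as lower. In JQ1, 0 of 18 G2 and mitosis genes rose and 3 fell, 3 of 23 damage signalling genes rose and 0 fell, and 2 of 20 E2F and DREAM regulators rose and 1 fell. Of 26 S-phase genes 2 rose and 1 fell, of 15 end-joining genes 1 rose and 1 fell, and of 41 recombination and Fanconi genes 1 rose and 1 fell. Of 6 mismatch repair genes 0 rose and 0 fell. Of all tested genes 8.57% passed, 3.01% as higher and 5.56% as lower. EXO1, a resection exonuclease, was at -0.62 in DMSO and -0.54 in JQ1, and PARP1, the poly(ADP-ribose) polymerase that senses breaks, at -0.42 and -0.48, and both fell in each treatment. CENPF, a kinetochore gene, was at -0.57 and -0.65, and LIN9, a DREAM subunit, at -0.63 and -0.68, and they fell as well. These 4 genes lie on chromosome 1 beyond MAPKAPK2 toward the end of the long arm, a position examined after their values were seen, and none of the 38 repair genes lies there. WEE1, a kinase that holds back mitosis, rose in knockout (0.45 in DMSO and 0.58 in JQ1), as did TP53BP1, which steers breaks to end joining (0.27 and 0.25). CDKN1A was at 57.7, 55.8 and 59.5 CPM in wild-type DMSO and at 82.4, 82.0 and 87.8 in knockout DMSO libraries. In JQ1 it was at 148, 155 and 142 CPM in wild type and at 166, 165 and 186 in knockout.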

How the data were processed

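RNA was depleted of ribosomal RNA and sequenced from strand-specific libraries, per the labels' protocols. Estimated counts per gene symbol, which need not be whole numbers, were deposited by the authors, with a second table of normalized signal in which each rounded count is divided by a factor of the gene and the library. The submitters' processing notes name Trim Galore, cutadapt, FastQC, MultiQC, kallisto and DESeq2 and the build GRCh38.p10, without roles. Whether counting used the strand is not given in the sources used here. Columns were matched to samples by name. The titles call the control libraries untreated and the treatment field says DMSO, which was followed.

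Estimated counts were rounded, filtered with edgeR's filterByExpr, scaled by TMM and tested with edgeR 4.0.16 (R 4.3.3), with 1 term for each of 4 groups over 12 libraries. Tests were two-sided at an adjusted p of 0.05 over 21698 genes, for 4 pairwise comparisons and the interaction. The precision is limited by 3 replicates and by library totals of 25316899 to 34594295 counts. The alternatives were DESeq2 1.42.0, limma 3.58.1 on log2(signal + 1), other scalings, no filter on low counts, a replicate block, fewer groups and leaving out each library. GC content and length of transcripts, from GENCODE, covered 97.7% of tested genes. The fitting steps were tested on simulated data.

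The 38 genes and the further lists were chosen with earlier results of these data known. Values in every library are given for genes that passed in a knockout comparison, for the 8 with the smallest adjusted p in each JQ1 comparison and for at least 1 gene of each role. From the further lists, genes were named by smallest adjusted p. Some genes of the further lists are counted but not reported here by name.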

Additional observations from a re-analysis of the deposited data

How the results depend on the processing

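Under each alternative the number of the 38 repair genes that passed was counted again. For JQ1 in wild type, 9 passed, and 15 did with library totals only, 16 with only the groups compared in the fit and 14 with GC content and length offsets. The calls over all genes moved as well, from 7187 as reported to 7666, 8740 and 8571 in the same order. Leaving out single libraries gave 5 (without wild-type DMSO replicate 1) to 15 (without knockout JQ1 replicate 3), where 5754 and 8455 of all genes passed. For JQ1 in knockout, 12 passed, and the 21 alternatives gave 8 to 18. Over all genes 7472 passed as reported, 5715 with only the groups compared (8 repair genes) and 8878 with GC content and length offsets (18 repair genes). For the knockout in DMSO, 2 passed. The count was 1 with RLE size factors, with the authors' factors as offsets and with limma on the authors' signal, 4 with DESeq2, 5 with only the groups compared and 6 with GC content and length offsets. Over all genes 1718 passed as reported, and 1781, 1601, 1519, 1993, 2619 and 2926 in the same order. The count of repair genes ran from 1 to 4 with single libraries left out, and was 4 without knockout JQ1 replicate 3, where 2650 of all genes passed. For the knockout in JQ1, 2 passed. The count was 1 with the authors' factors, limma, only the groups compared or GC content and length offsets, and 1 to 3 with single libraries left out, of which 3 was without knockout JQ1 replicate 3. Over all genes 1860 passed as reported, and 1591, 1638, 922, 3245 and 2331 in the same order. BRCA2, uncalled for JQ1 otherwise, rose with GC content and length offsets, by 0.19 in wild type and 0.18 in knockout on the log2 scale. The cause of these shifts was not tested. A replicate block changed the knockout counts to 1 in DMSO and 1 in JQ1 and left 9 and 12 for JQ1. The labels do not say whether same-numbered libraries belong together. Their deviations from the group means correlated at -0.115 to 0.0786, and 2 of 12 libraries correlated best with their own number. With 3 libraries per group, this cannot settle the question. The interaction called 0 of the 38 in all 20 alternatives. For JQ1, 15 of the 29 genes uncalled in wild type and 14 of the 26 uncalled in knockout passed in at least 1 alternative. Genes with few counts, such as RAD51B, have wide errors.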
